A study of Homo sapiens with 10 samples.

Results

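RNA-seq counts of 46 genes for chromatin regulators were followed through 10 libraries of U2932. This established human cell line derives from a diffuse large B cell lymphoma, an aggressive tumour of mature B lymphocytes. The members are a list of symbols grouped by complex: 6 KMT2 and SETD1 methyltransferases, 5 demethylases, 4 methyltransferases of H3K36 and H3K79, 5 genes of Polycomb repressive complex 2 (PRC2), 5 of PRC1, 2 of the Polycomb deubiquitinase, 9 of SWI/SNF, 6 of DNA methylation, 2 BET readers and 2 of the NCoR corepressor. Each matched 1 of the 21174 rows of the count table, and all 46 passed the filter on low counts, which left 11961 genes. The groups were 5 clones labelled CREBBP+/+ (columns WT_1 to WT_5) and 5 labelled CREBBP+/- (columns Het_6 to Het_10). CREBBP encodes a histone acetyltransferase, and the labels give no other allele, agent or time. Each library is 1 clone, grown in RPMI with serum and prepared with a TruSeq kit. The numbers of the CREBBP+/- columns match no labelled clone, so those libraries stand for their group only. How the clones were made is not given in the sources used here, and where nothing says that libraries came from separate cultures, p-values measure only the spread between these libraries.

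Chromatin regulators write, erase or read marks on histones and DNA, or move nucleosomes. KMT2 and SETD1 enzymes methylate histone H3 at lysine 4 at promoters and enhancers, PRC2 methylates lysine 27 to keep genes silent, PRC1 ubiquitinates histone H2A, and SWI/SNF slides or ejects nucleosomes. DNMT enzymes methylate cytosine in CpG dinucleotides and TET enzymes oxidise that mark. In germinal centre B cells and the lymphomas that arise from them, KMT2D, EZH2, CREBBP, ARID1A and TET2 are among the genes known to be recurrently mutated. No mutation was measured here.

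Library totals ran from 10615977 counts (Het_9) to 23020694 (Het_6). CREBBP itself had 118, 103, 103, 115 and 136 CPM in WT_1 to WT_5 and 71.4, 77.4, 56.8, 61.5 and 80.7 CPM in Het_6 to Het_10, where CPM is the count scaled to library size with TMM factors, a correction for library composition. The highest CREBBP+/- value was thus below the lowest CREBBP+/+ value. The log2 fold change (CREBBP+/- over CREBBP+/+) was -0.73 (95% confidence interval -0.99 to -0.46, edgeR adjusted p = 0.395), and CREBBP passed the threshold with DESeq2. The B cell marker CD79A ran at 371 to 661 CPM and PAX5 at 373 to 724 CPM. Of 20 markers for other lineages (lymphoid, myeloid, red cell, connective tissue, epithelium), 18 fell under the filter and 4 were at 0 in every library. In bulk RNA, fewer cells of a type and less RNA per cell cannot be told apart. Without EPCAM, these markers summed to 0.740 to 2.46 CPM in WT libraries and 1.16 to 7.26 CPM in Het libraries, highest in Het_9 and Het_10, and their part in the results was not tested. EPCAM ran at 1.42 to 26.7 CPM.

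The libraries also fall into 3 sets that cross the genotypes: WT_1, WT_2 and Het_8 (set A), WT_3, WT_4, WT_5, Het_6 and Het_7 (set B), and Het_9 and Het_10 (set C, with no CREBBP+/+ library). Clustering of log2 CPM over the 11821 tested genes outside the chromatin lists, with the tree cut into 3 groups by choice, returned the same 3 sets. As the sets had been seen in these data and most genes were kept, this is no independent support for them. U2932 is known to hold subclones that differ in chromosome content and in BCL6, a germinal centre repressor. BCL6 ran at 241, 247 and 319 CPM in set A, 542, 608, 612, 547 and 526 CPM in set B and 639 and 665 CPM in set C. The labels name no subclone, and because the sets were seen in these data, differences between them are described without a test.

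Levels of the members spanned a wide range when set per kilobase of the canonical transcript, a scale that allows genes to be compared. The most abundant were DNMT1, which copies methylation at replication (106 CPM per kb, mean of 10 libraries), and BRD2, a reader of acetylated histones (106). The SWI/SNF core subunit SMARCC1 (67.4), the PRC2 enzyme EZH2 (67.2), the SWI/SNF motor SMARCA4 (66.2) and the H3K4 demethylase KDM1A (61.5) followed. The lowest were the dioxygenase TET1 (0.209 CPM per kb), the de novo methyltransferase DNMT3A (0.588) and the PRC1 chromobox reader CBX8 (1.45). Reads were not assigned to transcripts, so the length used is that of 1 transcript per gene.

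**Figure D1:**
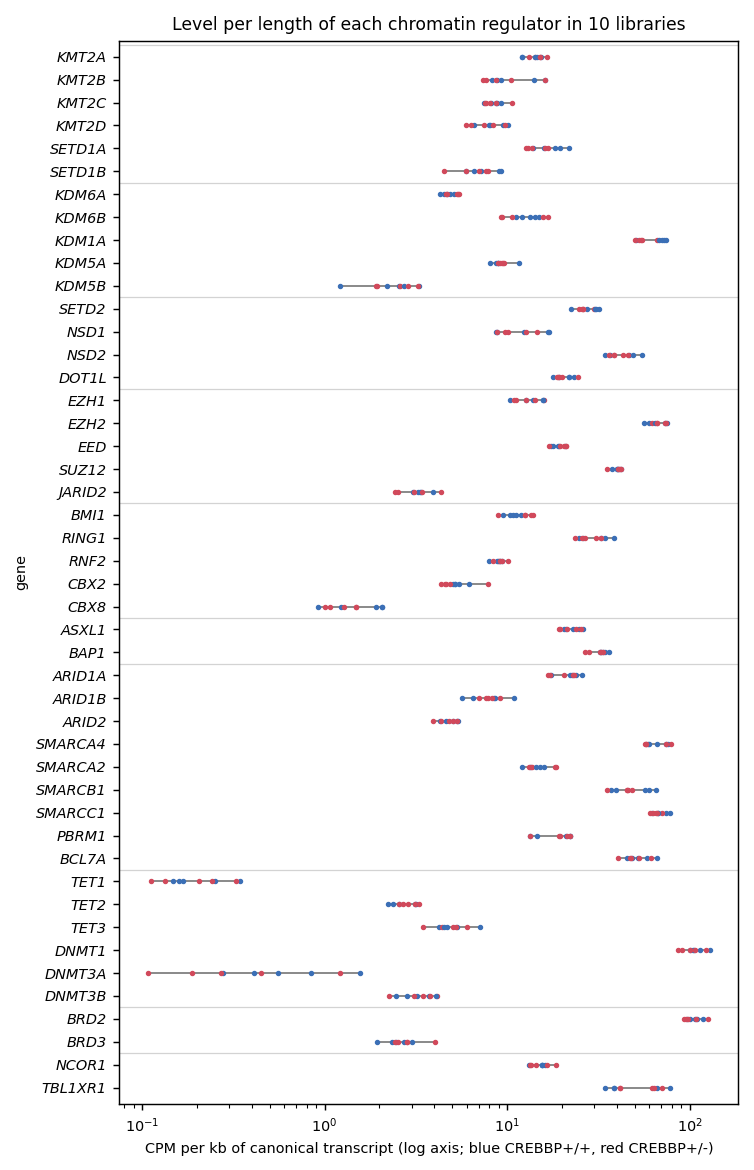
Level of each of the 46 members in each library, as CPM per kb of canonical transcript on a log axis, with blue points for CREBBP+/+, red points for CREBBP+/- and a grey line over the range. DNMT1 and BRD2 lie near 106 CPM per kb and TET1 at 0.209, and red and blue points are interleaved.

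Most paralogue pairs were unequal in the same sense in every library. On the per-length scale EZH2 stood above EZH1, the enzyme of resting cells, by 3.87 to 7.05 times, and SMARCA4 above its alternative motor SMARCA2 by 3.11 to 6.33 times. ARID1A exceeded ARID1B, the other DNA-binding subunit of BAF, by 1.87 to 4.03 times, and BRD2 exceeded BRD3 by 31.4 to 56.4 times. DNMT1 exceeded DNMT3B, the second de novo enzyme, by 22.8 to 52.9 times and DNMT3A by 73.2 to 942 times. Of 13 pairs, 2 crossed 1. KMT2A and KMT2B had a ratio of 0.740 to 2.24 that was below 1 in WT_1, WT_2 and Het_8 and above 1 in the other 7 libraries. The ratio of KMT2D to KMT2C, the enhancer methyltransferases, lay close to 1 on both sides (0.785 to 1.14).

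Between the genotypes no member passed the threshold. The quasi-likelihood test of edgeR called 0 of the 46 members and 0 of 11961 genes (0%) at an adjusted p under 0.05, and the smallest adjusted p of a member was 0.977. At an unadjusted p under 0.05 it had 2 members (4.35%, against 4.98% of all genes). DESeq2 called 33 genes and limma-voom 0, with 0 members in either. At an unadjusted p under 0.05 DESeq2 had 2 members and 857 of 16175 genes. Limma-voom had 0 members and 547 of 11961 genes. The median log2 fold change of the members was -0.070 and that of all genes -0.011, with 30 of 46 members (65.2%) and 52.4% of all genes below 0. The members' median moved towards 0 without WT_4 (-0.024), Het_6 (-0.040), Het_7 (-0.026) or Het_9 (-0.013), and without Het_9 and Het_10 together (-0.012). It did so too with the library sets as a covariate (-0.017) and with upper-quartile scaling (-0.043). It moved away from 0 without Het_8 (-0.101), WT_2 (-0.079), Het_10 (-0.074) or WT_3 (-0.071), and with no filter beyond a count above 0 (-0.075). Each of these moves was smaller than the SD between libraries of the members' median log2 level (0.065, pooled over the genotypes). No member had genotypes without overlap, where 0.426% of all genes lay higher and 0.594% lower in every CREBBP+/- library.

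The spread between these libraries also gives an interval for each genotype difference, in the fit without the library sets as covariate. Set C holds no CREBBP+/+ library, so these intervals set no limit on an effect of genotype alone. For 35 of the 46 members (76.1%) the 95% confidence interval of the fold change lay within 1.5-fold either way, against 57.9% of all genes. The median of the mean levels was 98.3 CPM over the members and 30.6 CPM over all genes, and the part of abundance in the 2 shares was not tested. The 11 members with wider intervals were KMT2B, SETD1A, SETD1B, KDM5B, NSD1, CBX8, SMARCB1, TET1, DNMT3A, BRD3 and TBL1XR1. Leaving out 1 library gave 34 to 39 members within those bounds.

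**Figure D2:**
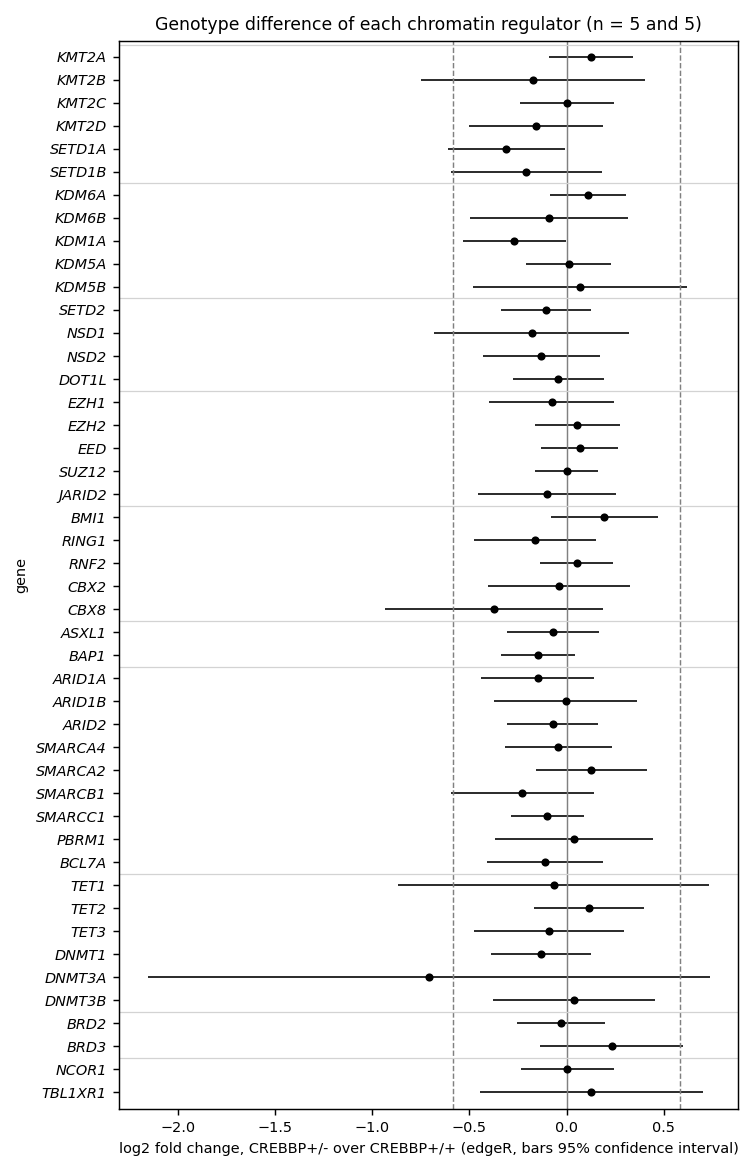
Log2 fold change of each member (CREBBP+/- over CREBBP+/+, point) with its 95% confidence interval from edgeR (bar), n = 5 and 5 libraries, ordered by complex. Dashed lines mark 1.5-fold either way: 35 of 46 intervals lie between them, and DNMT3A has the widest.

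Among the KMT2 and SETD1 enzymes, SETD1A had the smallest p of all members. Intervals given here are not adjusted for the number of genes. SETD1A, which places H3K4 trimethylation (ENSG00000099381, chromosome 16, 30957294 to 30984664, GRCh38), had 132, 110.1, 83.6, 95.5 and 117 CPM in WT_1 to WT_5 and 76.5, 82.3, 101, 77.9 and 96.7 CPM in Het_6 to Het_10. WT_1 and WT_5 were the highest, but WT_3 and WT_4 lay below Het_8 and Het_10, so the groups overlapped. Its log2 fold change was -0.31 (95% confidence interval -0.61 to -0.011, edgeR adjusted p = 0.977). The other lysine 4 enzymes overlapped too. KMT2D averaged 174 ± 28.2 and 156 ± 31.3 CPM, KMT2A 226 ± 25.1 and 247 ± 20.9 CPM and KMT2C 143 ± 11.6 and 143 ± 21.2 CPM (CREBBP+/+ and CREBBP+/-, mean ± SD, n = 5 each).

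Of the demethylases, KDM1A, which removes H3K4 methyl groups within CoREST, came closest to the threshold. KDM1A (ENSG00000004487, chromosome 1, 23019443 to 23083689) had 217, 225, 157, 230.0 and 209 CPM in WT_1 to WT_5 and 163, 169.6, 206, 167 and 155 CPM in Het_6 to Het_10. WT_3, at the level of Het_6 and Het_7, was the CREBBP+/+ library that overlapped, and Het_8 stood near the remaining CREBBP+/+ libraries. The log2 fold change was -0.27 (95% confidence interval -0.53 to -0.0042, edgeR adjusted p = 0.977). The H3K27 demethylases KDM6A (26.3 to 33.2 CPM) and KDM6B (62.2 to 112 CPM) and the H3K4 demethylases KDM5A (86.4 to 124 CPM) and KDM5B (11.3 to 30.6 CPM) overlapped, and KDM5B had its lowest value in WT_5.

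The H3K36 and H3K79 enzymes showed no genotype difference past the threshold. SETD2, the enzyme of H3K36 trimethylation (ENSG00000181555, chromosome 3, 47016428 to 47164113), had 271, 263, 192, 235 and 261 CPM in WT_1 to WT_5 and 223, 212, 256, 220.2 and 224 CPM in Het_6 to Het_10, with a log2 fold change of -0.11 (95% confidence interval -0.34 to 0.13, edgeR adjusted p = 0.989). The CREBBP+/- libraries lay inside the CREBBP+/+ range. NSD2, an H3K36 dimethyltransferase, ran at 260.2 to 416 CPM and DOT1L, the H3K79 methyltransferase, at 137 to 187 CPM.

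Over its 5 listed members PRC2 had the lowest median coefficient of variation of the 10 complexes, 9.79%, close to 10.03% for the Polycomb deubiquitinase. The 7 other PRC2 genes tested had a median of 16.2%, so the low value did not extend to them. The coefficient of variation over 10 libraries was 5.26% for the scaffold SUZ12, the lowest of the 46, 7.89% for EED, which binds H3K27me3, and 9.79% for EZH2, against a median of 15.4% over the members and 19.0% over all tested genes. EED (ENSG00000074266, chromosome 11, 86201212 to 86278813) had 37.5, 36.3, 43.5, 39.5 and 40.4 CPM in WT_1 to WT_5 and 42.8, 43.7, 35.3, 44.01 and 40.7 CPM in Het_6 to Het_10. The ranges were nearly the same, and the log2 fold change was 0.066 (95% confidence interval -0.13 to 0.27, edgeR adjusted p = 0.989). EZH2 averaged 175 ± 21.5 and 182 ± 13.9 CPM (n = 5 each). EZH1 ran at 48.0 to 74.3 CPM and the cofactor JARID2 at 14.7 to 26.1 CPM.

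In PRC1, BMI1, a PCGF subunit that activates the ubiquitin ligase (ENSG00000168283, chromosome 10, 22321099 to 22331484), had 36.9, 33.5, 42.2, 39.7 and 38.3 CPM in WT_1 to WT_5 and 49.4, 44.6, 31.7, 48.1 and 44.5 CPM in Het_6 to Het_10. In 4 CREBBP+/- libraries it was above every CREBBP+/+ library, and in Het_8 below all of them. The log2 fold change was 0.19 (95% confidence interval -0.082 to 0.47, edgeR adjusted p = 0.988). The ligases RNF2 (27.2 to 34.4 CPM) and RING1 (40.9 to 66.99 CPM) and the reader CBX2 (20.2 to 36.5 CPM) overlapped, and CBX2 was highest in Het_8. In the Polycomb deubiquitinase, which removes ubiquitin from H2A, the enzyme BAP1 (ENSG00000163930, chromosome 3, 52401008 to 52410008) had 118, 116, 131, 125 and 122 CPM in WT_1 to WT_5 and 118, 121, 116, 96.0 and 101 CPM in Het_6 to Het_10. Het_9 and Het_10 were the lowest, and Het_7 exceeded WT_1 and WT_2. The log2 fold change was -0.15 (95% confidence interval -0.34 to 0.043, edgeR adjusted p = 0.988). Its partner ASXL1 ran at 136 to 183 CPM.

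Of the SWI/SNF genes, SMARCB1, a core subunit that contacts the nucleosome, had the smallest p. SMARCB1 (ENSG00000099956, chromosome 22, 23786931 to 23838009) had 193, 206, 295, 339 and 310.1 CPM in WT_1 to WT_5 and 237, 251, 183, 239.7 and 237 CPM in Het_6 to Het_10. WT_3, WT_4 and WT_5 stood above all CREBBP+/- libraries, while WT_1 and WT_2 stood with Het_8 below the rest. The log2 fold change was -0.23 (95% confidence interval -0.60 to 0.14, edgeR adjusted p = 0.988). ARID1A, the BAF subunit most often mutated in cancer, averaged 192 ± 26.4 and 174 ± 26.8 CPM, and SMARCA4 375 ± 43.7 and 364 ± 58.1 CPM (n = 5 each). SMARCC1 ran at 385 to 495 CPM, BCL7A at 151 to 246 CPM, ARID1B at 58.2 to 113 CPM, SMARCA2 at 69.2 to 106 CPM and the PBAF subunit ARID2 at 34.0 to 46.1 CPM.

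For DNA methylation, DNMT1 (ENSG00000130816, chromosome 19, 10133342 to 10231286) had 685, 606, 533, 552 and 559 CPM in WT_1 to WT_5 and 479, 454, 649.9, 533 and 566 CPM in Het_6 to Het_10. Het_6 and Het_7 were the lowest and WT_1 and Het_8 the highest, so both genotypes reached the top of the range. The log2 fold change was -0.13 (95% confidence interval -0.39 to 0.13, edgeR adjusted p = 0.989). TET2 averaged 25.8 ± 4.18 and 27.9 ± 2.96 CPM and DNMT3B 14.2 ± 2.86 and 14.5 ± 3.12 CPM (n = 5 each), and TET3 ran at 41.7 to 85.6 CPM. Among acetyl-lysine readers, BRD3 (ENSG00000169925, chromosome 9, 134030305 to 134068535) had 10.97, 14.0, 15.4, 17.1 and 13.3 CPM in WT_1 to WT_5 and 16.1, 14.3, 22.7, 16.1 and 13.8 CPM in Het_6 to Het_10. Het_8 alone exceeded the CREBBP+/+ range, and the log2 fold change was 0.23 (95% confidence interval -0.14 to 0.60, edgeR adjusted p = 0.988). BRD2 ran at 462 to 624 CPM and the corepressor scaffold NCOR1 at 142 to 197 CPM.

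Other genes of the same complexes gave a like result between the genotypes. Of 97 listed, 94 were tested, and 0 passed the threshold of edgeR over all genes, with 32 above and 62 below 0 and a median log2 fold change of -0.062. DNMT3L and BRDT had no count in any library, and SMARCD3 was below the filter. Among the log2 fold changes nearest the threshold were -0.25 for CXXC1, the CpG-binding subunit of the SETD1 complexes, -0.21 for KDM2B, the CpG-binding PRC1 partner, and -0.26 for MBD3, each with an edgeR adjusted p of 0.977. Values below 0 that did not pass included CBX7 (-0.39), BCL7C (-0.30), PHF1 (-0.27), MBD6 (-0.22), PAGR1 (-0.19), MLLT6 (-0.18), AEBP2 (-0.13) and SMARCD1 (-0.13). Values above 0 that did not pass included ASH1L (0.13), ASXL2 (0.10) and ZBTB33 (0.10). Chosen after their values were seen, the highest of the 94 were PCGF2 (0.81, at 0 to 1.47 CPM), PSIP1 (0.26) and MLLT3 (0.19).

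The genotype difference was also read within the sets that hold both genotypes. In set A, Het_8 was set against WT_1 and WT_2, and in set B, Het_6 and Het_7 against WT_3 to WT_5. Outside the CREBBP+/+ range on the same side in both sets lay 2 members on the higher side (4.35%, against 6.12% of all genes) and 3 on the lower side (6.52%, against 7.06%), shares near the background. The higher ones were SMARCA2 (log2 ratio 0.11 in set A and 0.28 in set B) and TET2 (0.07 and 0.33). The lower ones were SETD1A (-0.26 and -0.32), SMARCB1 (-0.13 and -0.37) and BAP1 (-0.017 and -0.071). With the sets as a covariate edgeR called 0 members, with an adjusted p of 0.233 for SMARCB1. In that fit 5 members (SMARCB1, SMARCA2, TET2, SETD1A and KMT2A) had an unadjusted p under 0.05 in edgeR. This was 10.9%, below the 12.7% of all genes. The share of all genes was 4.98% in the fit without the sets. As the sets were seen in these same values, the p-values of the fit with them are given as a description only.

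**Figure D3:**
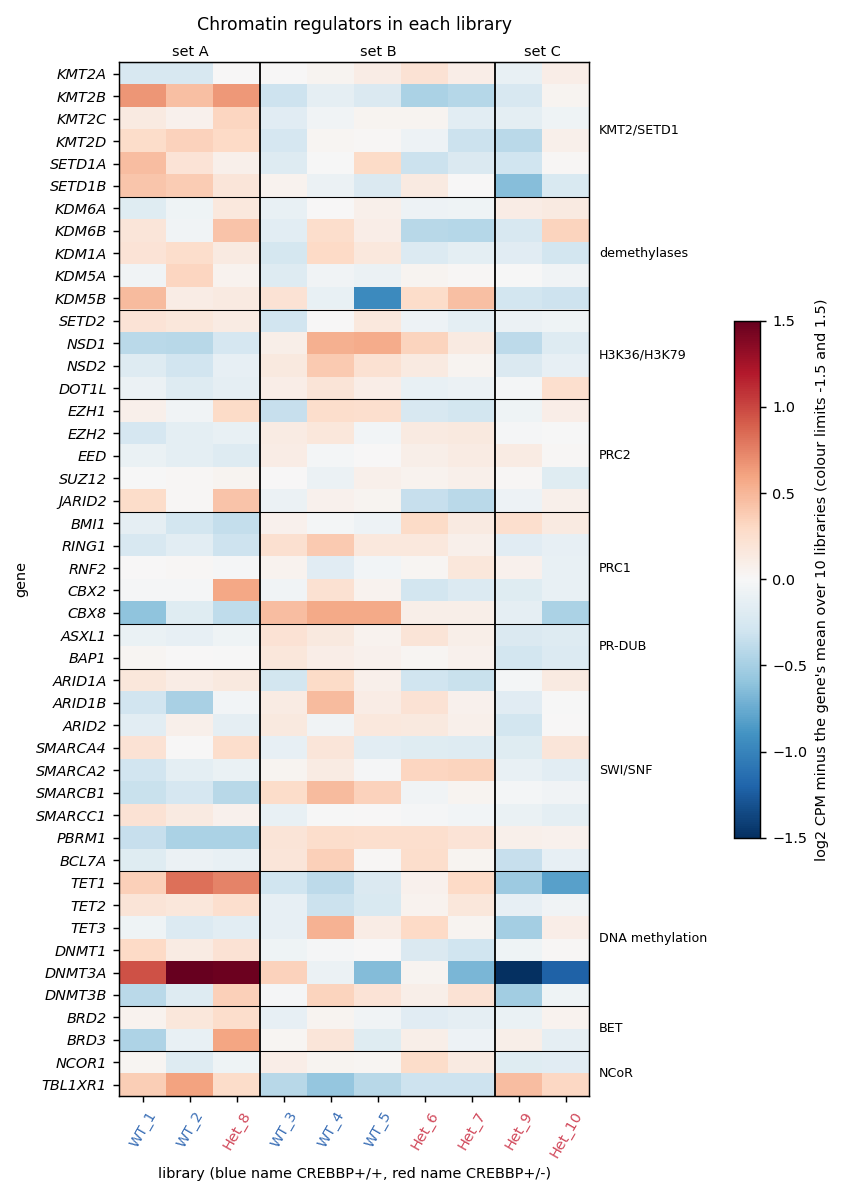
Log2 CPM of each member minus its mean over the 10 libraries, with libraries ordered by set (columns) and genes by complex (rows). The colour follows the sets more than the genotype in DNMT3A, TET1, KMT2B, PBRM1 and TBL1XR1, and the SUZ12 and EED rows are pale.

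Between the library sets, 8 of the 46 members (17.4%) were apart in at least 1 pair of sets, against 37.8% of all tested genes. Apart means levels that did not overlap and means that differed at least 1.5-fold. The members had a higher median level than all genes (98.3 against 30.6 CPM), and the part of abundance in these shares was not tested. Set A exceeded set B in 4 members (8.7%, against 10.7% of all genes) and lay below it in 3 (6.52%, against 12.8%). Set A exceeded set C in 4 members (8.7%, against 11.4%) and lay below it in 0 (against 14.6%). When Het_9 was left out, sets A and C were apart in 2 members, DNMT3A and TET1, in place of 4, against 27.3% of all genes. Set C exceeded set B in 1 member (2.17%, against 7.04%) and lay below it in 4 (8.7%, against 6.6%). The 8 were KMT2B, SETD1B, NSD1, CBX8, PBRM1, TET1, DNMT3A and TBL1XR1. Just short of the limit were SMARCB1, 1.48-fold higher in set B than in set A, and KDM5B, 1.46-fold higher in set A than in set C.

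DNMT3A had the widest spread of the 46 members, with a coefficient of variation of 81.3%. DNMT3A (ENSG00000119772, chromosome 2, 25227855 to 25342590) stood at 7.95, 14.8 and 11.4 CPM in WT_1, WT_2 and Het_8, at 5.23, 3.85, 2.60, 4.23 and 2.56 CPM in WT_3 to WT_5, Het_6 and Het_7, and at 1.01 and 1.77 CPM in Het_9 and Het_10. The 3 sets were ordered without overlap, set A 3.08-fold above set B and 8.18-fold above set C. Counts were low, from 11 to 271 reads per library. Between the genotypes the log2 fold change was -0.71 (95% confidence interval -2.16 to 0.74, edgeR adjusted p = 0.989), and it ran from -1.51 without Het_8 to -0.22 without WT_2. TET1, which oxidises the mark that DNMT3A sets (ENSG00000138336, chromosome 10, 68560337 to 68694487), stood at 2.40, 3.33 and 3.16 CPM in set A, 1.53, 1.43, 1.61, 1.96 and 2.32 CPM in set B and 1.29 and 1.07 CPM in set C, from 14 to 61 reads. It had the same order of sets, 2.51-fold between sets A and C, and a genotype log2 fold change of -0.067 (95% confidence interval -0.87 to 0.73, edgeR adjusted p = 0.993).

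KMT2B, which places H3K4 methylation at CpG-rich promoters, had the largest difference between sets A and B of the 6 KMT2 and SETD1 members. KMT2B (ENSG00000272333, chromosome 19, 35717973 to 35738880) stood at 138, 119 and 137 CPM in set A, 70.2, 79.1, 75.0, 62.7 and 64.8 CPM in set B and 73.4 and 89.3 CPM in set C. Set A lay 1.87-fold above set B and 1.61-fold above set C, and sets B and C overlapped. The genotype log2 fold change was -0.17 (95% confidence interval -0.75 to 0.41, edgeR adjusted p = 0.989). SETD1B, the paralogue of SETD1A (ENSG00000139718, chromosome 12, 121804009 to 121832656), stood at 79.7, 77.6 and 67.7 CPM in set A, 62.0, 56.3, 51.3, 65.5 and 60.1 CPM in set B and 38.5 and 51.1 CPM in set C. Only sets A and C were apart, 1.68-fold, and the genotype log2 fold change was -0.21 (95% confidence interval -0.60 to 0.18, edgeR adjusted p = 0.988). Without Het_9 the means of sets A and C were under 1.5-fold apart for both genes.

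Set B was the high set for NSD1 and CBX8. NSD1, an H3K36 dimethyltransferase (ENSG00000165671, chromosome 5, 177131830 to 177300213), stood at 115, 113 and 128 CPM in set A, 161, 219, 222, 191 and 167 CPM in set B and 115 and 132 CPM in set C. WT_4 and WT_5 were the highest, and set B lay 1.62-fold above set A and 1.55-fold above set C. The genotype log2 fold change was -0.18 (95% confidence interval -0.68 to 0.32, edgeR adjusted p = 0.989). CBX8 (ENSG00000141570, chromosome 17, 79792132 to 79801683) stood at 3.45, 4.64 and 4.03 CPM in set A, 7.22, 7.75, 7.76, 5.59 and 5.60 CPM in set B and 4.78 and 3.77 CPM in set C, from 52 to 160 reads. Set B lay 1.68-fold above set A, with its 3 CREBBP+/+ libraries above its 2 CREBBP+/- libraries. The genotype log2 fold change was -0.37 (95% confidence interval -0.94 to 0.19, edgeR adjusted p = 0.988).

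PBRM1, the bromodomain subunit that defines PBAF (ENSG00000163939, chromosome 3, 52545352 to 52685917), was low in set A. It stood at 116, 107 and 106 CPM in set A, 169, 178, 176, 177 and 171 CPM in set B and 156 and 155 CPM in set C. Set B lay 1.59-fold above set A, set C 1.41-fold above it, and the genotypes lay close together within sets A and B. The genotype log2 fold change was 0.036 (95% confidence interval -0.37 to 0.44, edgeR adjusted p = 0.991). TBL1XR1, the exchange factor of the NCoR complex (ENSG00000177565, chromosome 3, 177019340 to 177228000), was low in set B alone. It stood at 544, 641 and 509 CPM in set A, 317, 282, 317, 341 and 341 CPM in set B and 580.0 and 524 CPM in set C. Sets A and C lay 1.77-fold and 1.73-fold above set B, and overlapped each other. The genotype log2 fold change was 0.13 (95% confidence interval -0.45 to 0.70, edgeR adjusted p = 0.989).

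**Figure D4:**
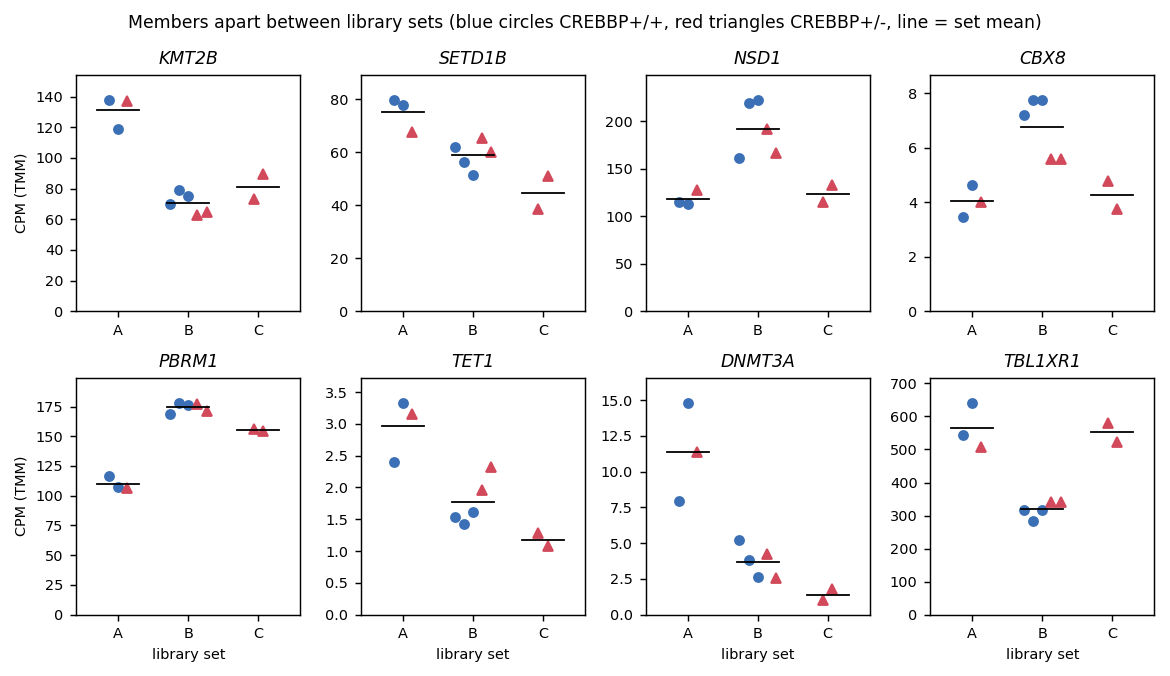
CPM of the 8 members that were apart between library sets, 1 panel per gene with its own axis from 0, blue circles for CREBBP+/+, red triangles for CREBBP+/- and a line at the set mean. Set A is the high set for DNMT3A, TET1, KMT2B and SETD1B, set B for NSD1 and CBX8, set A is low for PBRM1 and set B is low for TBL1XR1.

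The promoters of 4 of these genes are shown because their levels set the library sets apart in 3 different patterns: DNMT3A and KMT2B high in set A, PBRM1 low in set A, and TBL1XR1 low in set B. The sequences are from RefSeq (GRCh38.p14), 5′ to 3′ in the direction of transcription, from 250 bases before to 50 bases after the gene's start. Capitals mark each CpG, the site on which DNMT and TET enzymes act.
DNMT3A, chr2:25342434-25342733, - strand: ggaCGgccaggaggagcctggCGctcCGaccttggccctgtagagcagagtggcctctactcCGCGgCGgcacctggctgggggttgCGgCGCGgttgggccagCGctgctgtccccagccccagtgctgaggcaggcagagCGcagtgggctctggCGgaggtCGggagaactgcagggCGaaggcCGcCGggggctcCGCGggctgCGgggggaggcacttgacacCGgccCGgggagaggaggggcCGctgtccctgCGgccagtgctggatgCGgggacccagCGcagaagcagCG
KMT2B, chr19:35717753-35718052, + strand: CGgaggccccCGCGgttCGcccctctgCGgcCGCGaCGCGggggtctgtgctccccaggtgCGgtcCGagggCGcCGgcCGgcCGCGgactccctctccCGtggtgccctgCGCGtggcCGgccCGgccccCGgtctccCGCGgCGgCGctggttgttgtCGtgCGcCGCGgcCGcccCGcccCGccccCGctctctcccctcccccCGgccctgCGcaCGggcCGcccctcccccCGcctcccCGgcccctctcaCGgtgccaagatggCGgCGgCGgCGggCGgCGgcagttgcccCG
PBRM1, chr3:52685864-52686163, - strand: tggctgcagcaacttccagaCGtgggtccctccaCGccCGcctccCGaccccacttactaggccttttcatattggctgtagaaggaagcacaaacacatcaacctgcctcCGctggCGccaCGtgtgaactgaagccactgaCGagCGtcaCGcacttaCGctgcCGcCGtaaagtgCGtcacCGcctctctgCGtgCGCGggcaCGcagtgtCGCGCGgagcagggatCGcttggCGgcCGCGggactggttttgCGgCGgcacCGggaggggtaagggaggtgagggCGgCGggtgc
TBL1XR1, chr3:177197433-177197732, - strand: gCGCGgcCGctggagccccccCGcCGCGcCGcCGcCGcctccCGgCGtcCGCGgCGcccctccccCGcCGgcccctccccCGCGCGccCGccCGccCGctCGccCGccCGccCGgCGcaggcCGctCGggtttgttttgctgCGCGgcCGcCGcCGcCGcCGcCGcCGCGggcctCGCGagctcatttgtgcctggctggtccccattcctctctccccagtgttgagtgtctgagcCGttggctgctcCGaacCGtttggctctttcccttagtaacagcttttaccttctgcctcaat

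The windows of KMT2B and TBL1XR1 held 48 and 44 CpG, that of PBRM1 31 and that of DNMT3A 26. A RefSeq window was matched for 39 of the 46 members, and not for SETD1B, DOT1L, CBX2, CBX8, BAP1, ARID2 and SMARCC1. The median was 30 CpG over the 39 members and 14 over 27305 promoters of the same length. Those promoters were not limited to genes that passed the filter, as all members did, and the part of expression in this contrast was not tested. NSD2 was the richest member (63) and DNMT3B the poorest (3). Of the other members apart between sets, NSD1 had 7 CpG and TET1 10. Genes high in set A thus included both CpG-rich and CpG-poor windows. Methylation was not measured. The promoter set has 1 start per gene. For TBL1XR1, DNMT3B, DNMT1, EED and SMARCA2, among others, that start lies inside the gene as annotated by GENCODE. The 3 CpG of DNMT3B are thus not a count at its annotated 5′ end.

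The members were also set beside their neighbours on the chromosome. Chromosome content was not measured. For each of the 8 members the log2 ratio of set A to set B was set beside the median of the tested genes whose starts lie within 5 Mb, where the median over all genes was -0.0094. KMT2B (0.90) had 140 such neighbours with a median of 0.56, 117 of them above 0. TET1 (0.71) had 46 neighbours with a median of 0.36, and 0.57 for set A over set C against 1.26 for TET1. TBL1XR1 (0.82) had 16 neighbours with a median of 0.29, and 0.27 for set C over set B against 0.79 for TBL1XR1. In these 3 genes the neighbours lay on the same side as the member at a smaller size, and their part in the result was not tested.

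For the other 5 the median of the neighbours lay nearer 0. The ratio of set A to set B was 1.60 for DNMT3A, while its 67 neighbours had a median of -0.12. NSD1 had -0.70 and its 65 neighbours -0.05. CBX8 had -0.73 and its 133 neighbours -0.21, 100 of them below 0 and so on the side of CBX8, with CBX2, in the same cluster of genes, at 0.25. PBRM1 had -0.66 and its 126 neighbours -0.20, 89 of them below 0 and so on the side of PBRM1, and the members BAP1 and SMARCC1, on the same chromosome arm, had -0.079 and 0.17. SETD1B had 0.74 for set A over set C and its 86 neighbours 0.15, 56 of them above 0. The neighbour medians of NSD1, CBX8, PBRM1 and SETD1B thus also lay on the side of the member, and that of DNMT3A did not. Their part in the result was not tested.

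**Figure D5:**
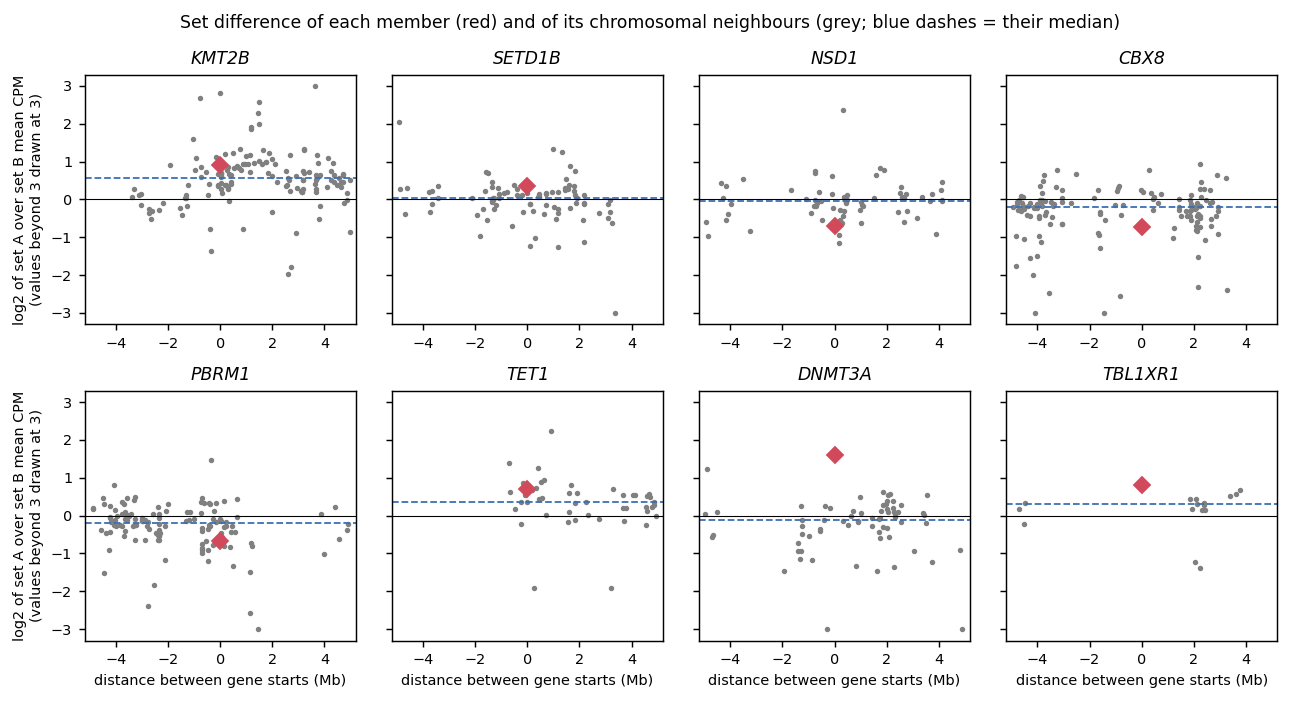
Log2 ratio of mean CPM in set A to set B for each of the 8 members (red diamond) and for tested genes within 5 Mb (grey points, by distance between gene starts), with the median of the neighbours as blue dashes. The neighbours of KMT2B, TET1 and TBL1XR1 have medians of 0.56, 0.36 and 0.29, and DNMT3A stands far above its own at -0.12.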

How the data were processed

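RNA was measured in 10 U2932 libraries. The values deposited by the authors are unnormalized read counts, 1 column per library. FastQC, STAR, featureCounts, DESeq2 and GRCh38 are listed, with no version or role, in the submitters' processing notes. Strandedness, annotation and counting options: not given in the sources used here. Overlapping genes therefore cannot be separated. All 2541 deposited counts of 10000 or more carry 4 significant digits. Symbols matched 20804 of 21174 identifiers, and coordinates and canonical transcripts come from GENCODE 44 (GRCh38).

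Counts were fitted across all genes by the edgeR 4.0.16 quasi-likelihood test under R 4.3.3 (TMM, robust dispersion, filterByExpr with a minimum count of 10 and a minimum total of 15, no covariate), two-sided, with Benjamini-Hochberg adjusted p-values over all 11961 genes tested and a threshold of 0.05. The fit was tested on simulated data. CPM use TMM factors, log2 CPM a prior count of 2, and neighbour ratios 0.1 CPM added. Set differences required no overlap and means 1.5-fold apart.

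Alternatives were DESeq2 1.42.0, limma-voom (limma 3.58.1), other size factors, other filters, the library sets as covariate and left-out libraries. The members, lists and library sets were chosen with earlier results of these data known. Named by rule were the members, the member with the smallest p of each complex and the members apart between sets with values in every library, and the other genes of each complex with the smallest p, some of which are not reported here.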

Additional observations from a re-analysis of the deposited data

Results flagged for a closer look

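The flags cover 94 groups of 5 log2 CPM values (46 members and CREBBP, 2 genotypes). In 9 groups the gap of 1 library to the nearest of the other 4 took up most of the spread. For values drawn alike from a normal distribution chance gives about 1 in 20 (4.7). Both genotype groups mix library sets, so their values are not alike and that rate is only a rough guide. Het_8, the CREBBP+/- library of set A, was the library in 4 of the 9. It was the lowest CREBBP+/- library for SMARCB1 (7.52, next 7.89), PBRM1 (6.73, next 7.27) and BMI1 (4.99, next 5.48), and the highest for CBX2 (5.19, next 4.51). Het_10 was the highest CREBBP+/- library for DOT1L (7.55, next 7.26) and the lowest for SUZ12 (7.32, next 7.51). Among CREBBP+/+ libraries, WT_2 was the highest for KDM5A (6.96, next 6.58) and the lowest for NCOR1 (7.15, next 7.38), and WT_3 was the lowest for KDM1A (7.29, next 7.71). SUZ12 had the smallest coefficient of variation of the 46 members, 5.26%.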

How the results depend on the processing

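Members called stayed at 0 under DESeq2, limma-voom, both other scalings, both other filters, the library sets as covariate, without Het_9 and Het_10 together, without each library in turn, and under DESeq2 without each library, which was added after the data were seen. Over all genes the count was 33 with DESeq2 and 0 to 1 in edgeR without 1 library (1 without Het_6), and DESeq2 gave 12 to 127 without 1 library. For the 17 members named with a genotype fold change and CREBBP, 311 of 324 alternative values kept their direction and their side of the threshold, and CREBBP passed with DESeq2. The 12 changes of sign concerned 4 uncalled members. With the sets as covariate the log2 fold change was 0.023 for SETD1B, -0.026 for PBRM1 and 0.36 for TET1. Without Het_9 and Het_10 it was 0.27 for TET1 and -0.080 for TBL1XR1. Without 1 library it ran from -0.063 to 0.14 for PBRM1 and from -0.31 to 0.17 for TET1; the cause was not tested. At a 2-fold limit 1 member was apart between sets A and B, 2 between A and C and 1 between C and B, as the stricter limit keeps fewer, and without 1 library 2 to 5 were apart between A and C (2 without Het_9). No paired analysis was possible because no label pairs CREBBP+/+ with CREBBP+/- clones. The CREBBP+/- columns also carry numbers that match no labelled clone. Depth limits DNMT3A and TET1, with as few as 11 and 14 reads in a library.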

Other observations

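Among the other genes of the same complexes, 23 of 94 tested (24.5%) were apart between library sets by the same rule, against 37.8% of all genes. Those named here were chosen after their values were seen and are described without a test. KDM5C, an X-linked H3K4 demethylase and paralogue of KDM5A and KDM5B, stood at 629.9, 585 and 644 CPM in set A, 161, 169, 149.6, 160.1 and 157 CPM in set B and 147 and 159.8 CPM in set C. Sets B and C overlapped and set A was 3.89-fold above set B, in both genotypes. Its 54 neighbours within 5 Mb had a median log2 ratio of set A to set B of -0.022, against 1.96 for KDM5C. CORO2A, an actin-binding protein found with NCoR, stood at 0.863, 0.818 and 3.98 CPM in set A, 18.6, 27.4, 14.7, 15.7 and 16.8 CPM in set B and 4.04 and 3.45 CPM in set C. Set B was the highest, and Het_8 stood at the level of set C, above WT_1 and WT_2. SS18, a BAF subunit, stood at 450.3, 471 and 504 CPM in set A, 862, 914, 881, 929.5 and 899 CPM in set B and 650.3 and 594 CPM in set C, with set A lowest and set B highest.

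Set C alone was low in 3 genes. BRD9, the bromodomain subunit of the non-canonical BAF complex, stood at 48.2, 41.8 and 57.0 CPM in set A, 47.1, 49.5, 48.5, 44.9 and 45.4 CPM in set B and 18.8 and 23.9 CPM in set C. Its 18 neighbours had a median log2 ratio of set A to set C of 0.69, against 1.20 for BRD9. MLLT10, a DOT1L partner, stood at 61.0, 66.6 and 72.2 CPM in set A, 57.7, 58.1, 61.0, 65.1 and 64.1 CPM in set B and 33.5 and 30.9 CPM in set C, and its 18 neighbours had a median of -0.40 against 1.05. KDM7A, an H3K9 and H3K27 demethylase, stood at 20.6, 19.9 and 21.6 CPM in set A, 17.1, 17.97, 17.5, 18.3 and 19.6 CPM in set B and 10.1 and 8.80 CPM in set C. On chromosome 10, which carries TET1, the PRC1 subunit PCGF5, its paralogue PCGF6 and HELLS, a remodeller needed for DNA methylation, were 1.98-fold, 1.58-fold and 1.77-fold higher in set A than in set B, with neighbour medians of 0.54, 0.52 and 0.49 in log2. The member BMI1, at 22321099 to 22331484 on the same chromosome, had -0.33 in log2 with a neighbour median of -0.15, and the neighbours of MLLT10, near BMI1, had -0.45. TET1, PCGF5, PCGF6 and HELLS lie between 68560337 and 103351144. The part of position in these differences was not tested.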
